A study of Homo sapiens with 18 samples.

Results

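WNT ligands, their receptors, their inhibitors and the genes of WNT feedback were followed in G401, a cell line from a malignant rhabdoid tumour. The set is a given list of 50 genes, all found by symbol among the 55765 genes of the deposited count table: 16 WNT ligands, 12 receptors (10 Frizzled genes and the co-receptors LRP5 and LRP6), 3 R-spondin receptors, 10 secreted inhibitors, 5 intracellular or membrane feedback inhibitors and 4 TCF/LEF transcription factors. Poly(A) RNA of 18 cultures was sequenced, in 6 groups of 3 biological replicates. The control line, labelled WT, had been edited at the safe-harbour locus AAVS1. E1 and F2 are clones in which both RB1 alleles were deleted with CRISPR/Cas9. Each line was treated for 11 days with 10 µM tazemetostat, which inhibits the histone methyltransferase EZH2, or with DMSO alone. Each RB1-deleted line is 1 clone, so loss of RB1 and other differences between clones cannot be told apart, and p-values measure the spread between cultures of the same line.

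WNT proteins are secreted lipid-modified signals that bind Frizzled receptors. With LRP5 or LRP6 as co-receptor they stabilise beta-catenin, which then acts on TCF and LEF factors at target genes, whereas other WNT and Frizzled pairings act on cell polarity and movement without it. Secreted proteins of the DKK and SFRP families restrain the pathway outside the cell, and AXIN2, RNF43, ZNRF3, NKD1 and NKD2 restrain it from within or at the membrane, AXIN2 being a widely used readout of beta-catenin activity. In the developing kidney, WNT9B, WNT4 and WNT11 guide nephron formation and branching, and EZH2 places the repressive H3K27me3 mark on many WNT pathway genes in stem and progenitor cells.

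The libraries held 25709489 to 39314860 reads, recovered from the size-factor-scaled values, and correlated at 0.9905 or more within a group. RB1 transcript, the targeted gene, averaged 2694 normalized counts for WT, 648 for E1 and 839 for F2 with DMSO. With tazemetostat it averaged 2474, 977 and 937, and no clone library reached the WT range in either treatment. EZH2 transcript averaged 2478 and 876 normalized counts in WT without and with tazemetostat, 3178 and 2989 in E1 and 3207 and 2649 in F2. SMARCB1, whose loss defines rhabdoid tumours, had 0 reads in all 18 libraries, while VIM, KRT8 and KRT18 were abundant. KRT8 averaged 23744 and 160825 in WT without and with tazemetostat, 41641 and 87232 in E1 and 14293 and 88322 in F2. Among 8 markers of other cell types, PTPRC and CD3E stayed at or below 1.93 normalized counts in every library. The summed level of the 8 markers was 1240 to 1480 in WT with DMSO and 1390 to 1540 with tazemetostat, 1500 to 2060 and 1490 to 1990 in E1, and 878 to 1070 and 1390 to 1550 in F2. PAX2, a kidney marker, made up most of these sums, with means of 1092 and 1024 normalized counts in WT without and with tazemetostat, 1729 and 1473 in E1 and 794 and 1079 in F2. PAX8, the other kidney marker, went from 0 in every DMSO library to 29.9 to 147 with tazemetostat. The epithelial marker CDH1 averaged 256 and 353 in WT, 15.9 and 139.8 in E1 and 149 and 265 in F2, while EPCAM averaged 14.0 and 11.2, 9.14 and 3.35, and 16.4 and 7.03. The endothelial marker CDH5 averaged 0.921 and 11.7 in WT, 0 and 7.31 in E1 and 0 and 26.5 in F2, and ALB, of hepatocytes, stayed under 10 in every group mean. The part of EZH2 levels and of such markers in the results that follow was not tested.

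Of the 50 genes, 34 had a mean of at least 10 normalized counts over the 18 libraries and were tested. The 16 that did not were WNT1, WNT2, WNT3A, WNT7A, WNT16, FZD6, FZD9, FZD10, SFRP2, SFRP4, WIF1, DKK2, DKK4, LEF1, LGR5 and LGR6, of which FZD9 and FZD10 had no read in any library. SFRP2, LEF1, WNT7A, WNT16, DKK2 and SFRP4 had none in the DMSO libraries and at most 14.8, 10.7, 8.07, 6.90, 4.93 and 1.87 normalized counts in a tazemetostat library. Among the tested genes, WNT7B, WNT10A, SFRP1, DKK1 and NKD1 had a mean under 10 over the DMSO libraries and reached the limit through the tazemetostat libraries. Because of this, counts over the tested genes describe the list and lend no support to a direction. A gene was past the threshold at a Benjamini-Hochberg adjusted p under 0.05 in limma, adjusted over all 16154 tested genes, with a log2 change of at least 1 in size on the log2(normalized count + 1) scale. In these bulk libraries, fewer cells expressing a gene and less RNA per cell cannot be told apart.

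With tazemetostat, 13 of the 34 tested genes rose and none fell in WT, where 14.5% of all tested genes rose and 6.77% fell (21.3% in either direction). In E1, 10 rose and 1 fell, against 11.3% and 3.78% of all tested genes (15.1% together), and in F2, 13 rose and 1 fell, against 13.3% and 3.71% (17.0% together). DKK1, DKK3, SFRP1, RNF43, NKD1, WNT4, WNT6, WNT7B, FZD1 and FZD8 rose in each of the 3 lines. The share of all tested genes that rose in all 3 lines was not computed, so this overlap is a description only. The median log2 change of the 34 genes was 0.47 for WT, 0.32 for E1 and 0.43 for F2, beside 0.03, 0.02 and 0.02 over all tested genes. By role, 4 of the 5 tested secreted inhibitors, 5 of the 11 ligands, 2 of the 9 receptors and 2 of the 5 feedback inhibitors rose in WT. LGR4, the only R-spondin receptor tested, and the 3 tested TCF factors were not past the threshold in any line.

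**Figure D1:**
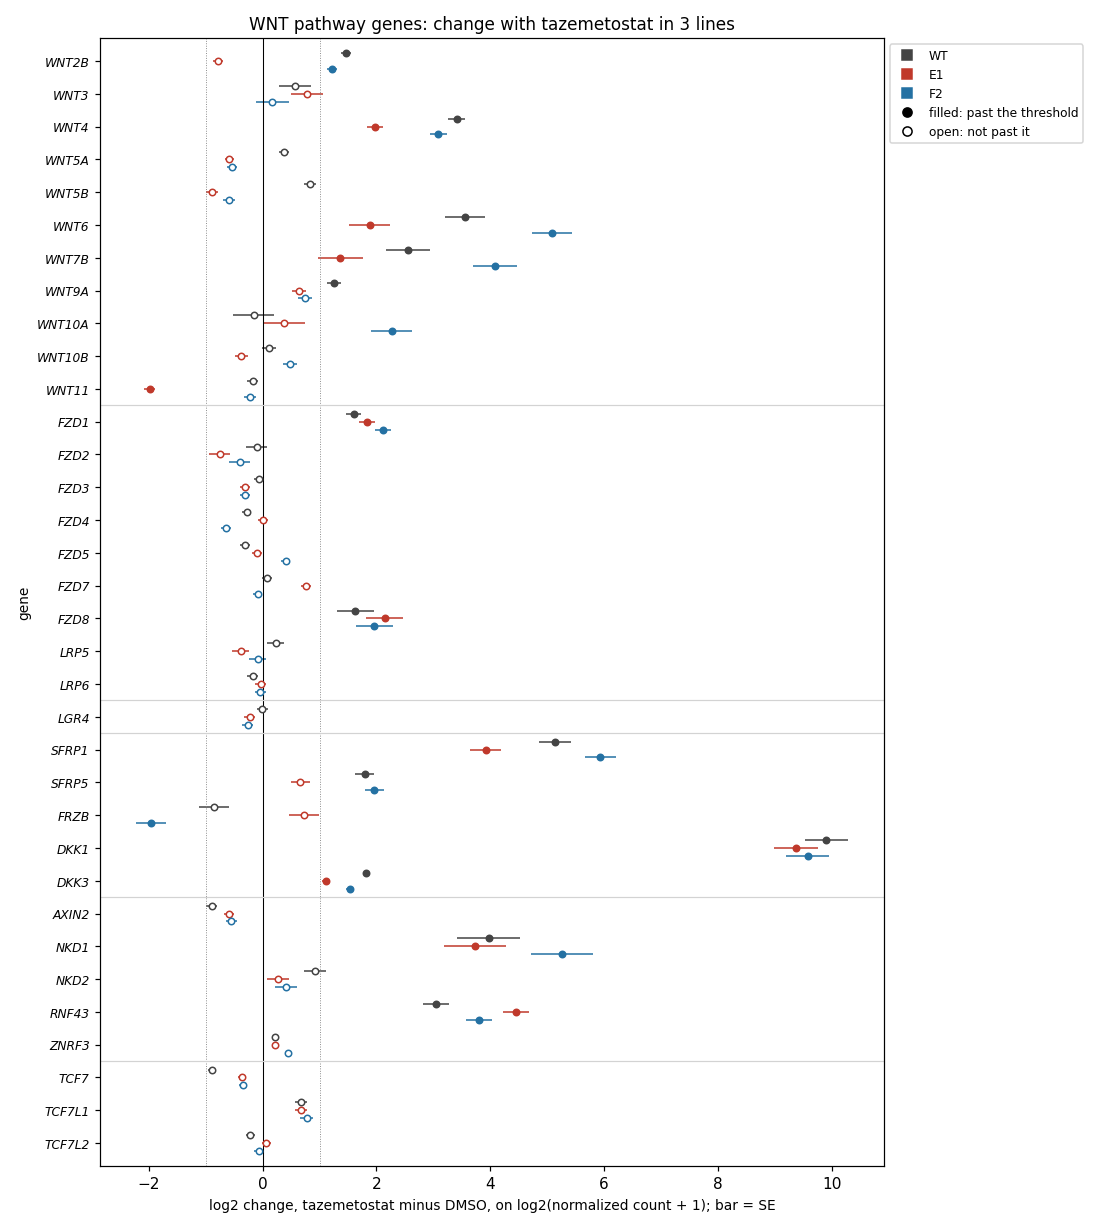
Log2 change with tazemetostat against DMSO (x axis, on the log2(normalized count + 1) scale) for the 34 tested WNT pathway genes (y axis, grouped by role) in WT, E1 and F2, with bars for the standard error, filled points for genes past the threshold and open points for the others. DKK1 lies farthest to the right, at 9.90 for WT, 9.37 for E1 and 9.57 for F2. WNT2B, WNT5A, WNT5B and FRZB are among the genes with changes of opposite sign in different lines, as are FZD5 and LRP5.

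DKK1, a secreted antagonist that binds LRP5 and LRP6, had the largest change of the 34 genes in each line. Its normalized counts were 0.873, 5.65 and 4.73 in the 3 WT libraries with DMSO and 4071, 4237 and 3613 with tazemetostat. In E1 they were 4.46, 0.965 and 4.87 with DMSO and 2557, 2748 and 2600 with tazemetostat, and in F2 2.05, 2.07 and 2.43 against 2586, 2364 and 2318. The lowest treated library, at 2318, was far above the highest untreated one, at 5.65. The ratio of means was 1059 for WT (95% counting interval 623 to 2107), 767 for E1 (426 to 1529) and 1110 for F2 (512 to 3041), where the intervals cover counting error only. Log2 changes were 9.90 ± 0.38 (SE), 9.37 ± 0.38 and 9.57 ± 0.38, with limma adjusted p of 6.347e-14, 1.493e-13 and 9.653e-14. With 3 libraries a group, the exact permutation test (two-sided) cannot go below p = 0.1. Per kilobase of exon (merged exons in GENCODE v29), DKK1 went from 1.70 to 1801 normalized counts in WT. That put it above every other gene of the list in treated WT cells, ahead of WNT2B at 1624.

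The 250 bases before the transcription start are shown for 4 genes, DKK1, WNT4 and RNF43, which rose in all 3 lines, and FRZB, whose level differed most between the untreated clones, because their start regions differ in CpG content, and CpG-rich starts are where the PRC2 complex that contains EZH2 is known to act. The sequences are RefSeq's for GRCh38.p14, 5′ to 3′ along the gene's own strand, with every CG dinucleotide in capitals. They lie at chr10:52314031-52314280 (plus strand) for DKK1, chr1:22143098-22143347 (minus strand) for WNT4, chr17:58417535-58417784 (minus strand) for RNF43 and chr2:182866638-182866887 (minus strand) for FRZB.
DKK1: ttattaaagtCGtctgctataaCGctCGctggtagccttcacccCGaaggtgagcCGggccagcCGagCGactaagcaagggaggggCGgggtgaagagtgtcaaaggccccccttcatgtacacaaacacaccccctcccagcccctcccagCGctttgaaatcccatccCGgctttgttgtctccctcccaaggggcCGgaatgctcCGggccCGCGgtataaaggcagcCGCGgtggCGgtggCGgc
WNT4: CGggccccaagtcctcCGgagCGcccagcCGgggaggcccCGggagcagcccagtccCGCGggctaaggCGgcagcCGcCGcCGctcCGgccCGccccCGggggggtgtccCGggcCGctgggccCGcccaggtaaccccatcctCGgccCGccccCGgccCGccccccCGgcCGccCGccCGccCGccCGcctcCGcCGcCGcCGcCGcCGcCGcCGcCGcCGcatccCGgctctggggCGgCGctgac
RNF43: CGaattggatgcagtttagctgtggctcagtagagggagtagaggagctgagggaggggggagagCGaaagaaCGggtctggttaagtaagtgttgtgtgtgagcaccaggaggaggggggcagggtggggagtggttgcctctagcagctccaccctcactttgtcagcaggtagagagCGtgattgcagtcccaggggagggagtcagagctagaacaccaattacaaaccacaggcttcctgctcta
FRZB: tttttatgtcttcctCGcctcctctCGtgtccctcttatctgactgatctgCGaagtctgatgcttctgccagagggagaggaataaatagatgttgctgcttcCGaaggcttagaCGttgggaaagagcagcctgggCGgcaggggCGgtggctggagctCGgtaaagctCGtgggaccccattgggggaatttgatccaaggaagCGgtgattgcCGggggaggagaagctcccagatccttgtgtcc
DKK1 held 18 CG dinucleotides in this window, WNT4 40, RNF43 4 and FRZB 11. The 4 genes were picked for this spread, so it describes the choice and no link with the response. The promoter table had an entry for 33 of the 50 genes. The median CG count was 23 over those 33, 21.5 over the 6 of them that rose in all 3 lines, 23 over the 16 tested genes that did not, and 11 over all 27305 promoters of the table. A TCF/LEF word, CTTTGAA or CTTTGAT on either strand (words that differ only in their last letter), stood in 6.03% of all promoters and in 1 of the 33, that of DKK1. A match of letters is no evidence of binding.

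Among the other secreted inhibitors, SFRP1 and SFRP5, which bind WNT proteins and keep them from their receptors, had low or moderate levels with DMSO. SFRP1 had 0, 0 and 0.946 normalized counts in WT with DMSO and 38.4, 47.7 and 43.1 with tazemetostat. It had 0 in all DMSO libraries of both clones, with 17.0, 14.5 and 11.3 in treated E1 and 66.0, 56.5 and 58.3 in treated F2. No treated group overlapped its control, and among treated cells E1 lay lowest and F2 highest without overlap. The ratio in WT was 137 (95% counting interval 24.8 to 5606), from 1 read with DMSO. Against a floor of 3 reads per library, SFRP1 was at least 5.04-fold higher in treated E1 and at least 18.4-fold higher in treated F2. The log2 changes were 5.14 ± 0.28 (SE) for WT, 3.92 ± 0.28 for E1 and 5.93 ± 0.28 for F2, with limma adjusted p of 7.838e-12, 5.692e-10 and 8.953e-13.

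SFRP5 had 46.3, 45.2 and 42.6 normalized counts in WT with DMSO and 149, 149.6 and 174 with tazemetostat. The E1 libraries had 78.6, 85.0 and 52.6 with DMSO and 119, 98.6 and 119.7 with tazemetostat, and in F2 35.9, 38.4 and 32.8 against 166, 126 and 135. The treated libraries were higher in each line without overlap, by 3.52-fold for WT, 1.56-fold for E1 and 3.99-fold for F2. Only WT and F2 passed the threshold, at log2 changes of 1.79 ± 0.17 (SE) and 1.96 ± 0.17 with limma adjusted p of 2.944e-08 and 9.942e-09, while E1 stood at 0.66 ± 0.17 (0.003515).

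DKK3, a relative of DKK1 that does not act on LRP5 and LRP6 in the same way, was already abundant. It had 958, 1052 and 973 normalized counts in WT with DMSO and 3611, 3583 and 3353 with tazemetostat. For E1 the values were 903, 880.4 and 894 against 1869, 1965 and 1936, and in F2 659, 697 and 603 against 1921, 1856 and 1881. The rise was largest in WT, at 3.54-fold, and smaller in E1, at 2.16-fold, and F2, at 2.89-fold. Log2 changes were 1.82 ± 0.06 (SE), 1.11 ± 0.06 and 1.53 ± 0.06, with limma adjusted p of 7.771e-15, 1.43e-11 and 9.544e-14. The difference in response was -0.71 ± 0.09 for E1 minus WT (limma adjusted p 4.583e-06) and -0.29 ± 0.09 for F2 minus WT (0.01815), both smaller than the fold limit, and both contrasts share the WT libraries.

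FRZB, also called SFRP3 and a WNT-binding inhibitor, differed in level between the lines and was lower with tazemetostat in WT and F2. It had 109, 102 and 85.2 normalized counts in WT with DMSO and 55.2, 54.2 and 51.7 with tazemetostat. In F2 it had 578, 644 and 656 with DMSO and 179, 164 and 139.7 with tazemetostat, while E1 had 0.893, 3.86 and 2.92 against 3.19, 5.80 and 4.71. The 3 lines did not overlap in either treatment, F2 being highest and E1 close to the floor. FRZB fell with tazemetostat in F2, by 3.90-fold (log2 change -1.96 ± 0.26 SE, limma adjusted p 3.937e-06). In WT the log2 change was -0.86 ± 0.26 (0.008254), under the fold limit. In E1 it was 0.72 ± 0.26 (0.0307), from 1, 4 and 3 reads with DMSO and 3, 6 and 5 with tazemetostat.

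Among the feedback genes, RNF43, a membrane ubiquitin ligase that removes Frizzled receptors, had 14.8, 20.7 and 20.8 normalized counts in WT with DMSO and 157, 151 and 175 with tazemetostat. E1 cells had 12.5, 9.65 and 21.4 against 338, 311 and 317, and in F2 22.5, 14.5 and 13.3 against 224, 258 and 242. The DMSO libraries of the 3 lines overlapped, whereas treated E1 was highest, treated F2 next and treated WT lowest, without overlap. The rise was 8.55-fold for WT, 22.2-fold for E1 and 14.4-fold for F2, with log2 changes of 3.04 ± 0.23 (SE), 4.45 ± 0.23 and 3.80 ± 0.23 and limma adjusted p of 1.396e-09, 6.283e-12 and 5.882e-11. In GENCODE v29, 59.5% of the RNF43 exon bases overlap genes on the same strand, among them SUPT4H1, and 20.3% overlap TSPOAP1-AS1 on the other strand, so the level depends on how such reads were counted, which is not given in the sources used here.

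NKD1, an inhibitor that binds Dishevelled, had 6.11, 7.54 and 5.68 normalized counts in WT with DMSO and 121, 96.3 and 131 with tazemetostat. In E1 it had 21.4, 1.93 and 14.6 against 141, 118 and 141, and in F2 7.17, 7.26 and 1.21 against 193, 206 and 206. Treated and untreated libraries did not overlap in any line, and treated F2 was above treated WT and E1. The ratio was 18.01 for WT, 10.5 for E1 and 38.7 for F2, with log2 changes of 3.97 ± 0.55 (SE), 3.73 ± 0.55 and 5.25 ± 0.55 and limma adjusted p of 4.383e-06, 1.513e-05 and 1.484e-07. The differences between the lines' responses were not past the threshold, at -0.24 ± 0.78 for E1 minus WT (limma adjusted p 0.8373) and 1.28 ± 0.78 for F2 minus WT (0.2436).

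**Figure D2:**
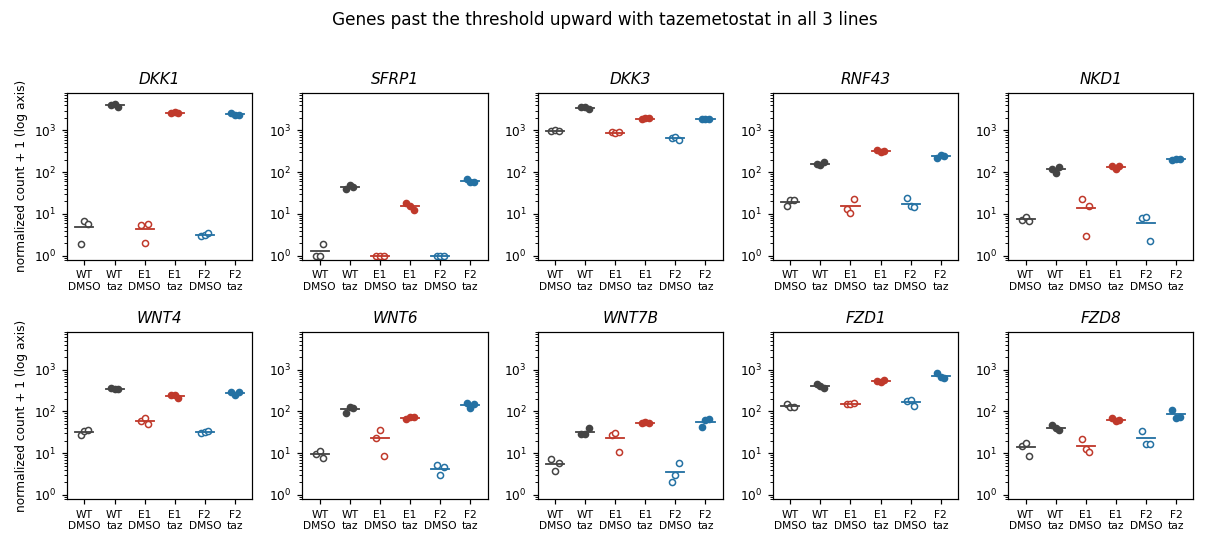
Normalized counts plus 1 (y axis, log scale) of the 10 genes past the threshold upward with tazemetostat in all 3 lines, with points for the 3 libraries of each group (open, DMSO; filled, tazemetostat; x axis) and a line at the mean. In every panel the treated libraries lie above the untreated libraries of the same line, from 3.04-fold for FZD1 to 1059-fold for DKK1 in WT. DKK1, SFRP1, NKD1 and WNT7B reached the limit for testing through the tazemetostat libraries. The share of all tested genes that rose in all 3 lines was not computed.

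The other feedback genes did not pass the threshold. AXIN2, the scaffold of the beta-catenin destruction complex and itself a beta-catenin target, had 271, 270.5 and 258 normalized counts in WT with DMSO and 142, 148 and 139 with tazemetostat. The E1 libraries had 252, 226 and 272 against 166, 159 and 171, and in F2 289, 285 and 282 against 182, 195 and 209. The treated libraries were lower in every line without overlap. The log2 changes were -0.89 ± 0.09 (SE) for WT, -0.59 ± 0.09 for E1 and -0.55 ± 0.09 for F2, with limma adjusted p of 1.164e-07, 3.464e-05 and 6.932e-05, all under the fold limit. With every library scaled to the same total, the WT change was -1.05 and passed it. AXIN2 shares 25.2% of its exon bases with another gene model on its strand. NKD2 stood at log2 changes of 0.92, 0.26 and 0.41 in WT, E1 and F2, and ZNRF3, the partner of RNF43, at 0.23, 0.22 and 0.45.

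Of the transcription factors, TCF7 had 956, 1068 and 1091 normalized counts in WT with DMSO and 534, 579.9 and 569 with tazemetostat, a difference of -0.89 ± 0.07 (SE) on the log2 scale (limma adjusted p 4.611e-09). In E1 and F2 the log2 changes of TCF7 were -0.37 ± 0.07 and -0.35 ± 0.07, with limma adjusted p of 0.0004345 and 0.0005883. The response was thus 0.52 ± 0.10 less negative in E1 than in WT (limma adjusted p 0.0007725) and 0.54 ± 0.10 in F2 (0.0008047), both under the fold limit. With libraries scaled to the same total, the WT change of TCF7 was -1.04 and passed the threshold. TCF7L1, which mostly represses WNT targets, had log2 changes of 0.68 for WT, 0.68 for E1 and 0.78 for F2, with limma adjusted p of 3.377e-05, 5.464e-05 and 9.093e-06, and its highest library was 2349 in treated F2. TCF7L2 stayed between 889.9 and 1434 in all libraries. LEF1 had no read in any of the 9 DMSO libraries and 1.01 to 10.7 normalized counts in the treated ones, too few to be tested.

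**Figure D3:**
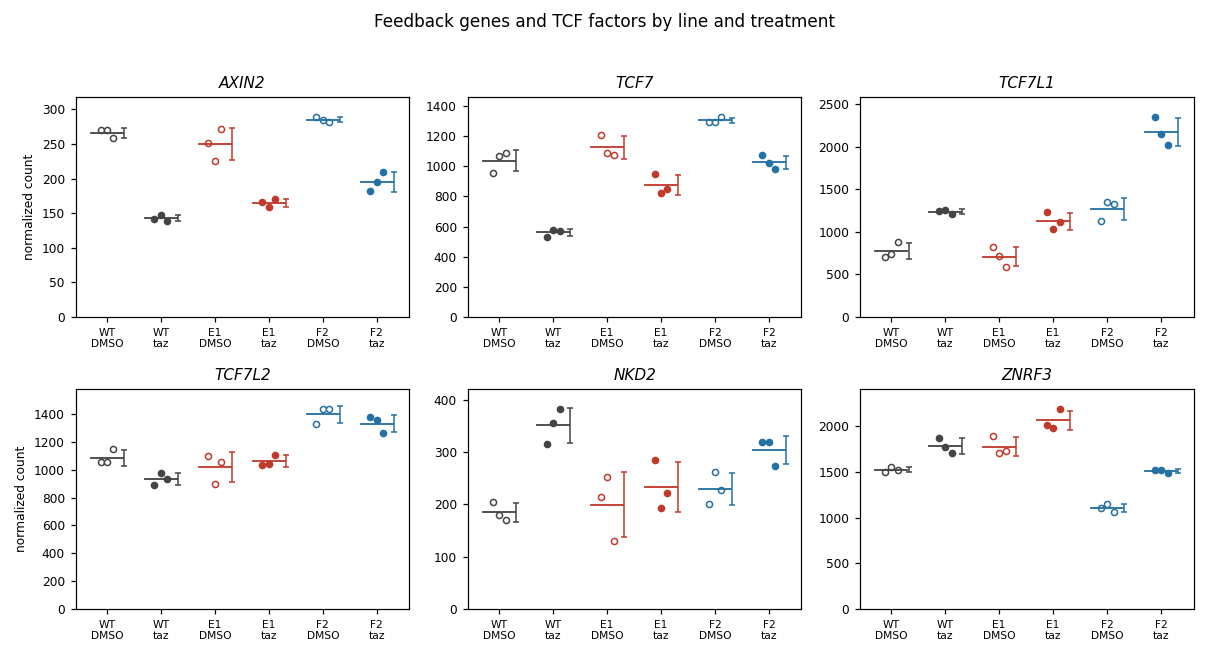
Normalized counts (y axis, from 0) of the feedback genes AXIN2, NKD2 and ZNRF3 and of TCF7, TCF7L1 and TCF7L2 by line and treatment (x axis), with points for the 3 libraries (open, DMSO; filled, tazemetostat), a line at the mean and a bar for the SD. AXIN2 is lower in the treated libraries of each line, from 267 to 143 on average in WT, and TCF7L1 is highest in treated F2.

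Of the 11 tested ligands, WNT4, WNT6 and WNT7B rose in all 3 lines. WNT4, a ligand of nephron formation, had 26.2, 33.9 and 36.0 normalized counts in WT with DMSO and 356, 339.5 and 347 with tazemetostat. For E1 the values were 58.9, 70.5 and 48.7 against 247, 247 and 209, and in F2 29.7, 32.2 and 32.8 against 290.3, 252 and 284. E1 started highest and ended lowest: its DMSO libraries lay above those of the other lines and its treated libraries below theirs. The rise was 10.8-fold for WT, 3.95-fold for E1 and 8.74-fold for F2, with log2 changes of 3.41 ± 0.15 (SE), 1.97 ± 0.15 and 3.09 ± 0.15 and limma adjusted p of 3.281e-13, 1.34e-09 and 1.349e-12.

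WNT6, a ligand of epithelia, had 8.73, 10.4 and 6.62 normalized counts in WT with DMSO and 89.7, 125 and 118 with tazemetostat. E1 cells had 22.3, 34.8 and 7.79 against 64.9, 74.5 and 72.5, and in F2 4.10, 2.07 and 3.64 against 155, 120.1 and 148. Treated libraries were above untreated ones in each line, and E1 DMSO replicate 3 lay below its replicates, within the WT range. The ratio was 13.0 for WT, 3.27 for E1 and 43.2 for F2, with log2 changes of 3.55 ± 0.36 (SE), 1.88 ± 0.36 and 5.08 ± 0.36 and limma adjusted p of 6.48e-08, 0.0002389 and 4.46e-10.

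WNT7B, a ligand that acts on blood vessels and lung, likewise had its largest log2 change in F2 and its smallest in E1. It had 6.11, 2.83 and 4.73 normalized counts in WT with DMSO and 27.6, 27.1 and 38.2 with tazemetostat. In E1 it had 25.9, 29.9 and 9.74 against 51.1, 54.2 and 51.8, and in F2 1.02, 2.07 and 4.85 against 40.8, 62.6 and 65.7. Again E1 DMSO replicate 3 was lowest in its group. Log2 changes were 2.55 ± 0.39 (SE) for WT, 1.36 ± 0.39 for E1 and 4.08 ± 0.39 for F2, with limma adjusted p of 1.541e-05, 0.007964 and 4.55e-08. Without that E1 library the change of WNT7B in E1 was 0.89 (limma adjusted p 0.0545), no longer past the threshold.

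WNT2B had the most RNA of the ligands, at 591 normalized counts per kilobase of exon in WT with DMSO, followed by WNT11 at 168, WNT5A at 87.9 and WNT10B at 66.5. Its normalized counts were 7594, 7090 and 7590 in WT with DMSO and 21282, 19382 and 20535 with tazemetostat. In E1 they were 10684, 8238 and 10540 against 5447, 5341 and 6319, and in F2 2483, 2261 and 2443 against 5423, 5302 and 5959. WNT2B rose 2.75-fold in WT and 2.32-fold in F2 and was 1.72-fold lower with tazemetostat in E1, without overlap in any line. The libraries of treated E1 and treated F2 overlapped, although those of the untreated clones lay far apart. The log2 changes were 1.46 ± 0.09 (SE) for WT, -0.78 ± 0.09 for E1 and 1.21 ± 0.09 for F2, with limma adjusted p of 5.344e-11, 6.184e-07 and 9.119e-10, that in E1 being under the fold limit. In GENCODE v29, 21.2% of the WNT2B exon bases lie opposite ST7L, and whether the counting used the strand is not given in the sources used here.

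WNT11, a ligand of cell movement and of ureteric branching, had 409, 378 and 420.2 normalized counts in WT with DMSO and 359.7, 353 and 356 with tazemetostat. The E1 libraries had 1122, 1210 and 973 against 270.4, 284 and 274, and in F2 165, 180.5 and 143 against 139.8, 148 and 129.5. Untreated E1 stood above all other groups, and only E1 passed the threshold: WNT11 fell 3.99-fold there (log2 change -1.99 ± 0.10 SE, limma adjusted p 3.621e-12). The log2 change was -0.17 ± 0.10 in WT (0.1372) and -0.22 ± 0.10 in F2 (0.07383).

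WNT5A and WNT5B, ligands that act largely without beta-catenin, had changes of opposite sign in WT and the clones. WNT5A had 680.4, 626 and 644 normalized counts in WT with DMSO and 877, 829.6 and 818 with tazemetostat. For E1 the values were 3256, 2514 and 3160 against 2004, 1851 and 2072, and in F2 1409, 1238 and 1352 against 911, 897 and 937. WNT5A was thus higher with tazemetostat in WT and lower in both clones, without overlap within a line. Its log2 changes of 0.37 ± 0.08 (SE), -0.58 ± 0.08 and -0.54 ± 0.08 had limma adjusted p of 0.0008251, 1.175e-05 and 2.428e-05, all under the fold limit.

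WNT5B had 152, 142 and 159.9 normalized counts in WT with DMSO and 274, 253 and 289 with tazemetostat. E1 cells had 209, 193 and 182 against 99.0, 106 and 108, and in F2 213, 212 and 191 against 142, 141 and 123. It was higher in the treated libraries of WT and lower in those of both clones, again without overlap. Log2 changes were 0.84 ± 0.11 (SE) for WT, -0.89 ± 0.11 for E1 and -0.60 ± 0.11 for F2, with limma adjusted p of 1.261e-06, 9.522e-07 and 9.695e-05, also under the fold limit.

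WNT9A, a ligand of joint and blood development, had 157, 156 and 125 normalized counts in WT with DMSO and 359.7, 339.5 and 342 with tazemetostat. In E1 it had 222, 253 and 183 against 371, 316 and 331, and in F2 130.1, 136 and 118 against 228, 209.9 and 205. All lines were higher when treated, by 2.37-fold for WT, 1.55-fold for E1 and 1.68-fold for F2, and WT alone passed the threshold (log2 change 1.25 ± 0.12 SE, limma adjusted p 5.549e-08). WNT10A, a ligand of skin and teeth, was low. It had 6.11, 15.1 and 10.4 in WT with DMSO and 5.91, 10.3 and 11.1 with tazemetostat, 13.4, 13.5 and 6.82 against 10.6, 18.4 and 15.1 in E1, and 3.07, 3.11 and 1.21 against 15.5, 18.2 and 12.02 in F2. Only in F2 did the treated libraries stand clear of the untreated ones, by 2.27 ± 0.36 (SE) on the log2 scale (limma adjusted p 3.285e-05). WNT10B was at log2 changes of 0.11, -0.37 and 0.48 in WT, E1 and F2, and WNT3 at 0.57, 0.78 and 0.17.

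**Figure D4:**
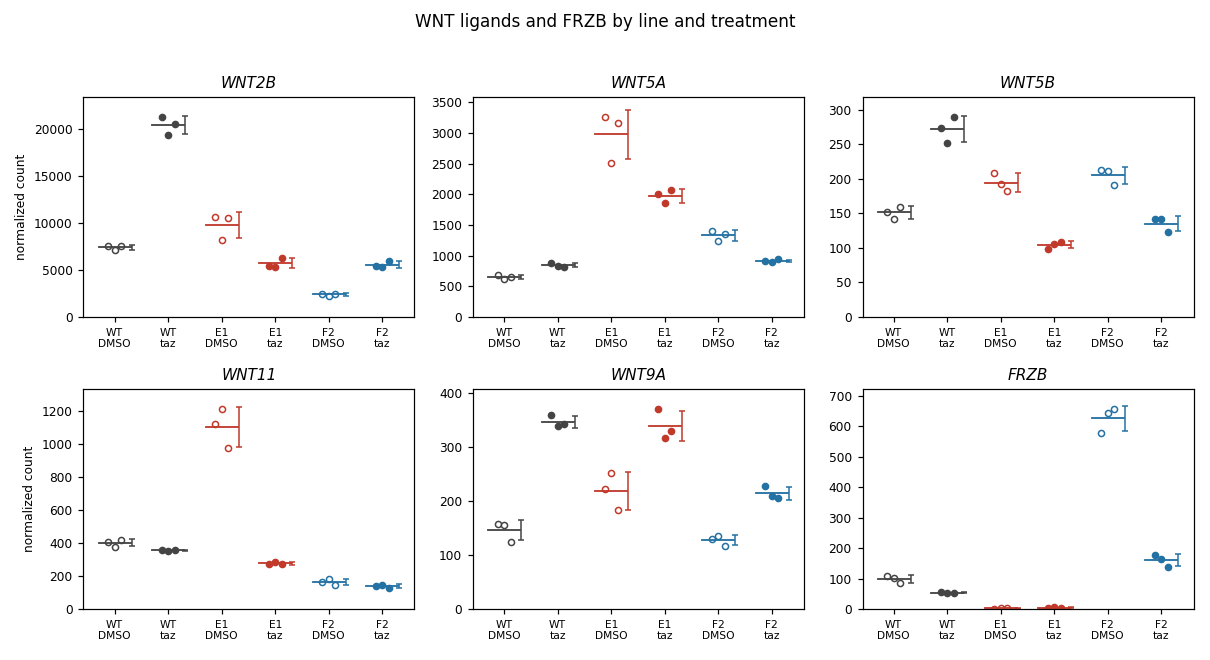
Normalized counts (y axis, from 0) of the ligands WNT2B, WNT5A, WNT5B, WNT11 and WNT9A and of the WNT-binding inhibitor FRZB by line and treatment (x axis), with points for the 3 libraries (open, DMSO; filled, tazemetostat), a line at the mean and a bar for the SD. WNT2B is higher with tazemetostat in WT and F2 and lower in E1, and FRZB reaches 626 on average in untreated F2 against 2.56 in untreated E1.

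Of the 9 tested receptors, FZD1 and FZD8 rose in all 3 lines. FZD1 had 153, 126 and 124 normalized counts in WT with DMSO and 466, 400.3 and 361 with tazemetostat, 147, 153 and 155 against 542, 515 and 573 in E1, and 176, 188 and 133 against 821, 682 and 650.3 in F2. Treated libraries were at least 361 and untreated ones at most 188, with treated F2 highest. The log2 changes were 1.60 ± 0.13 (SE), 1.83 ± 0.13 and 2.12 ± 0.13, with limma adjusted p of 4.842e-09, 9.066e-10 and 8.923e-11. FZD8 had 14.0, 17.0 and 7.57 in WT with DMSO and 45.3, 39.3 and 35.7 with tazemetostat, 21.4, 11.6 and 9.74 against 69.2, 58.0 and 62.2 in E1, and 33.8, 15.6 and 15.8 against 109.7, 68.6 and 73.1 in F2. No line's treated libraries overlapped its untreated ones. The log2 changes of FZD8 were 1.63 ± 0.33 (SE), 2.14 ± 0.33 and 1.96 ± 0.33, with limma adjusted p of 0.0002798, 2.392e-05 and 5.541e-05.

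The receptors with most RNA were not past the threshold with tazemetostat in any line. FZD2 was the highest, at 1038 normalized counts per kilobase of exon in WT with DMSO and 966 with tazemetostat, ahead of LRP5 at 318 and LRP6 at 266. FZD2 varied most within E1 with DMSO, where the libraries had 2371, 2906 and 1398 normalized counts. Across the 3 lines, the log2 changes of FZD2, FZD3, FZD4, FZD5, LRP5 and LRP6 lay between -0.75, for FZD2 in E1, and 0.40, for FZD5 in F2. FZD7 had 556, 588 and 490.2 normalized counts in WT with DMSO and 558, 558 and 611 with tazemetostat, 339, 306 and 349 against 539.8, 591 and 561 in E1, and 766, 726 and 675 against 725, 635 and 677 in F2. Untreated E1 was lowest and treated E1 reached the WT range, a difference of 0.77 ± 0.09 (SE) on the log2 scale in E1 (limma adjusted p 4.979e-07) beside 0.08 ± 0.09 in WT. The receptors that rose, FZD1 and FZD8, were the lowest of the tested ones per kilobase in untreated WT cells, at 19.3 and 3.19.

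The second question of the design is how the untreated RB1-deleted clones differ from WT. In E1, 4 of the 34 genes were higher and 1 lower than in WT with DMSO, where 2.35% and 2.69% of all tested genes were (5.04% together). In F2, 3 were higher and 4 lower, against 0.885% and 2.09% (2.98% together). Both clones are compared with the same WT libraries. The genes past the threshold were ligands and FRZB. Only 9 receptors, 5 feedback genes and 3 TCF factors were tested, and none passed it. Several of them still stood apart from WT without overlap, among them FZD4, FZD5 and ZNRF3 in both clones and TCF7 and TCF7L2 in F2. How many of all tested genes did so was not counted, so this is a description only. FZD7 had 306 to 349 normalized counts in untreated E1 and 675 to 766 in untreated F2, against 490 to 588 in WT. TCF7L1 had 1126 to 1355 in untreated F2 against 709 to 883 in WT, which untreated E1 overlapped. WNT5A was higher in both clones, by 4.58-fold in E1 (log2 difference 2.18 ± 0.08 SE, limma adjusted p 8.073e-13) and 2.05-fold in F2 (1.03 ± 0.08, 6.348e-08); without F2 DMSO replicate 1 the value in F2 was 0.99, under the fold limit. WNT11 was 2.74-fold higher in E1 and 2.47-fold lower in F2, at log2 differences of 1.45 ± 0.10 and -1.30 ± 0.10 (limma adjusted p 3.595e-09 and 2.944e-08). FRZB was 38.6-fold lower in E1 and 6.34-fold higher in F2, at log2 differences of -4.91 ± 0.26 and 2.66 ± 0.26 (limma adjusted p 9.817e-11 and 8.199e-07).

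WNT2B was 3.10-fold lower in untreated F2 than in WT (log2 difference -1.63 ± 0.09 SE, limma adjusted p 2.752e-10), and 1.32-fold higher in E1 (0.39 ± 0.09, 0.003161). WNT7B was 4.80-fold higher in E1 (1.95 ± 0.39, limma adjusted p 0.001222), and lost the call when only the compared groups were fitted (0.0659). WNT3, a canonical ligand, had 10.5, 28.3 and 15.1 normalized counts in untreated WT, 20.5, 30.9 and 31.2 in untreated E1 and 61.5, 47.7 and 36.4 in untreated F2. Treated cells had 21.7, 23.4 and 30.8 in WT, 52.2, 43.5 and 46.2 in E1 and 62.1, 53.5 and 46.2 in F2. F2 lay above WT in both treatments without overlap, by a log2 difference of 1.46 ± 0.29 with DMSO (limma adjusted p 0.00125), lost when only the compared groups were fitted (0.063). WNT10A was 4.27-fold lower in untreated F2 (-1.71 ± 0.36, limma adjusted p 0.002451). WNT6 was 2.52-fold higher in E1 (1.04 ± 0.36, 0.04193) and 2.62-fold lower in F2 (-1.18 ± 0.36, 0.02574), and neither call was robust to single libraries. The E1 call was lost without any 1 of the WT DMSO libraries or of E1 DMSO replicates 1 and 2, at log2 differences of 0.60 to 1.17. The F2 call was lost without WT DMSO replicate 1 (-1.16) or 2 (-1.05) or F2 DMSO replicate 2 (-0.96). Both calls also depended on the method, and each was lost with a pseudocount of 5 (0.83 in E1, -0.71 in F2). With no filter, limma adjusted p was 0.0881 in E1 and 0.0561 in F2. Fitting only the compared groups lost the call in E1 (0.304), and edgeR (adjusted p 0.132) and DESeq2 (0.076) lost it in F2.

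The clones differed from each other as well. With DMSO, 6 of the 34 genes were higher in E1 than in F2 and 2 were lower, where 4.05% and 3.52% of all tested genes were (7.56% together). WNT2B, WNT5A, WNT6, WNT7B, WNT10A and WNT11 were higher in E1, with log2 differences of 2.03, 1.15, 2.22, 2.65, 1.82 and 2.75. FZD7 was 2.18-fold lower in E1 (-1.12 ± 0.09 SE, limma adjusted p 8.407e-09). FRZB was 245-fold lower in E1 (-7.57 ± 0.26 SE, limma adjusted p 1.057e-13), from 8 reads in the 3 E1 libraries together. By role, 6 of the 11 tested ligands were past the threshold between the untreated clones.

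With tazemetostat, 3 of the 34 genes separated the clones, beside 8 with DMSO, and the difference between these counts was not tested. WNT5A was higher in E1 than in F2 (1.11 ± 0.08 SE, limma adjusted p 1.328e-08), and FRZB (-4.88 ± 0.26, 1.281e-10) and SFRP1 (-2.02 ± 0.28, 1.861e-05) were lower, 1 gene up and 2 down where 2.39% and 4.43% of all tested genes were (6.82% together). Without E1 tazemetostat replicate 1, 5 genes were past the threshold, WNT11 and TCF7L1 being the added ones. Against treated WT, 1 gene was higher and 4 lower in treated E1 (5.40% and 5.95% of all tested genes, 11.3% together), and 3 were higher and 3 lower in treated F2 (7.31% and 4.97%, 12.3% together). WNT2B was lower in both, by log2 differences of -1.84 ± 0.09 in E1 and -1.88 ± 0.09 in F2 (limma adjusted p 1.657e-11 and 1.169e-11). WNT5B was lower too, at -1.37 ± 0.11 in E1 (limma adjusted p 5.648e-09) and -1.002 ± 0.11 in F2 (2.986e-07). The F2 value lay at the fold limit, and under it with TMM scaling (-0.991), edgeR (-0.994), DESeq2 (-0.996) and without WT tazemetostat replicate 1 (-0.996) or 3 (-0.956) or F2 tazemetostat replicate 3 (-0.935). In E1, WNT5A was higher (1.23 ± 0.08) and FRZB (-3.32 ± 0.26) and SFRP1 (-1.54 ± 0.28) were lower. In F2, FRZB (1.56 ± 0.26), WNT3 (1.07 ± 0.29) and FZD8 (1.02 ± 0.33) were higher and WNT11 (-1.35 ± 0.10) was lower. Without F2 tazemetostat replicate 1, WNT3 and FZD8 stood at 0.96 and 0.81, and without WT tazemetostat replicate 1 and 3 they stood at 0.97 and 0.94.

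The third question is whether the response to tazemetostat differs between the lines, tested as a difference of log2 changes in the same fit. For E1 minus WT, 2 of the 34 genes passed the threshold upward and 7 downward, against 4.79% and 5.21% of all tested genes (10.0% together). For F2 minus WT, 3 passed upward and 2 downward, against 4.82% and 2.66% (7.48% together). The 2 sets of differences share the WT libraries. In E1, 5 ligands had a lower response than in WT: WNT2B by -2.24 ± 0.13 (SE), WNT11 by -1.81 ± 0.14, WNT5B by -1.73 ± 0.15, WNT6 by -1.67 ± 0.50 and WNT4 by -1.44 ± 0.21, with limma adjusted p of 6.75e-10, 2.622e-08, 8.221e-08, 0.01489 and 3.298e-05. The median response difference of the 11 ligands was -1.19 in E1 and -0.24 in F2, beside 0.01 over all tested genes in both.

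WNT5B was the only gene of the list with a lower response than WT in both clones at the fold limit, at -1.73 ± 0.15 (SE) in E1 and -1.44 ± 0.15 in F2 (limma adjusted p 8.221e-08 and 1.175e-06). WNT5A lay just under the limit in both, at -0.95 ± 0.12 and -0.91 ± 0.12 (limma adjusted p 6.339e-06 and 1.489e-05). WNT6 differed in opposite directions, at -1.67 ± 0.50 in E1 and 1.53 ± 0.50 in F2 (limma adjusted p 0.01489 and 0.03146). FRZB did so too, at 1.58 ± 0.37 and -1.10 ± 0.37 (limma adjusted p 0.002851 and 0.03508). The E1 value of FRZB came from 1, 4 and 3 reads with DMSO and 3, 6 and 5 with tazemetostat. Its F2 call was lost with a pseudocount of 0.5 (limma adjusted p 0.0687) and with no filter (0.0675). With the same total in every library it was lost as well (-0.98, limma adjusted p 0.057).

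Of the remaining differences, SFRP5 had a lower response in E1 (-1.13 ± 0.24 SE, limma adjusted p 0.001282), at -0.998 without E1 DMSO replicate 2. RNF43 had a higher response in E1 (1.41 ± 0.33, limma adjusted p 0.002778). SFRP1 was lower in E1 on this scale (-1.22 ± 0.39, limma adjusted p 0.02088), but edgeR on the recovered reads gave 0.22 (adjusted p 0.598), the opposite sign, SFRP1 having 1 read in untreated WT and none in untreated E1. The SFRP1 call was also lost without WT DMSO replicate 1 (-1.06) or 2 (-1.06) or E1 tazemetostat replicate 3 (-1.07). In F2, WNT10A (2.42 ± 0.51, limma adjusted p 0.001697) and WNT7B (1.53 ± 0.55, 0.04904) had higher responses than in WT. Both genes had reached the limit for testing through the tazemetostat libraries. Untreated F2 libraries had only 3, 3 and 1 reads of WNT10A and 1, 2 and 4 of WNT7B. The calls of WNT10A and WNT5B in F2 held without any single library, whereas those of WNT6, WNT7B and FRZB did not, and 2 to 4 of the 5 genes were left in such fits. WNT6 was lost without WT DMSO replicate 1 or 2, WT tazemetostat replicate 1, F2 DMSO replicate 2, or F2 tazemetostat replicate 1 or 3, at 1.31 to 1.51. WNT7B was lost without any single library other than WT DMSO replicate 2, WT tazemetostat replicate 3, F2 DMSO replicate 3 and F2 tazemetostat replicate 1, at 1.17 to 1.49, and FRZB without all but WT DMSO replicate 1, F2 DMSO replicate 1 and F2 tazemetostat replicate 1, at -1.13 to -1.001. In the fit that blocked on replicate number, WNT7B had an adjusted p of 0.0614.

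**Figure D5:**
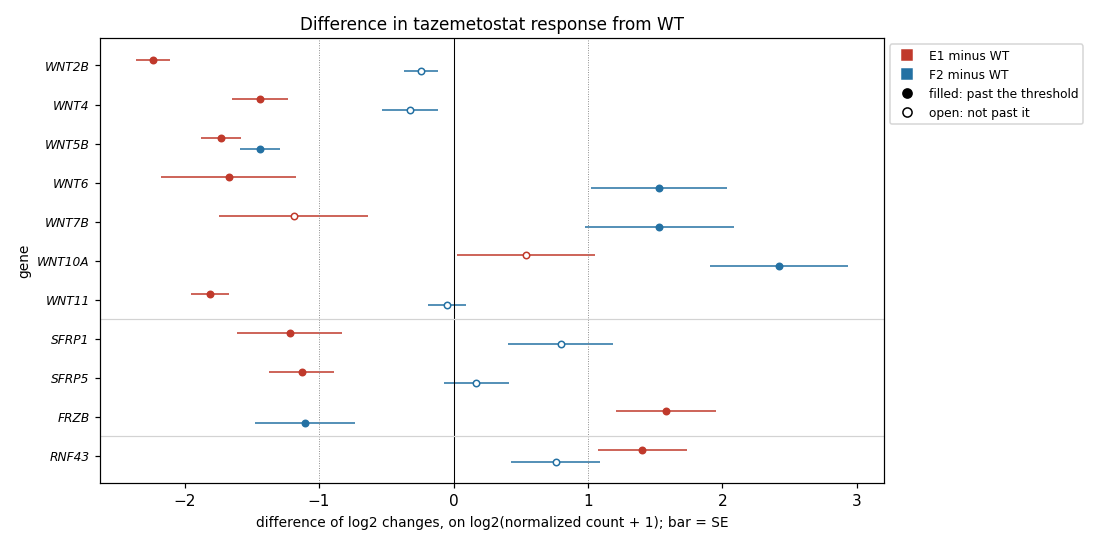
Difference of the log2 change with tazemetostat from that in WT (x axis, on the log2(normalized count + 1) scale) for the 11 genes past the threshold in at least 1 clone (y axis), with bars for the standard error, filled points for genes past the threshold and open points for the others. WNT5B is left of 0 in both clones, at -1.73 and -1.44, whereas WNT6 and FRZB lie on opposite sides. FRZB had 1 to 6 reads per library in E1. The sign of SFRP1 in E1 was opposite with edgeR.

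Of 66 other genes of the pathway, 53 were tested. With tazemetostat, 14 rose and 3 fell in WT, where 14.5% and 6.77% of all tested genes did. In E1, 10 rose and 4 fell, against 11.3% and 3.78%, and in F2, 12 rose and 3 fell, against 13.3% and 3.71%. Of the tested genes, RSPO1, VANGL2, TNFRSF19, CD44 and MSX2 had a mean under 10 normalized counts over the DMSO libraries and reached the limit through the tazemetostat libraries, so these counts, by role too, are descriptions that lend no support to a direction. In WT the risers included 4 of 7 tested beta-catenin targets, 4 of 8 genes of planar cell polarity and 3 of 5 genes of WNT secretion and agonism, whereas 0 of the 15 genes of the intracellular relay rose and 1 fell. The largest log2 changes upward in WT were those of TNFRSF19, a receptor that is a beta-catenin target, and CD44, an adhesion receptor. TNFRSF19 had no read in untreated WT and 6977, 6832 and 6476 normalized counts in treated WT, at least 2448-fold higher against 3 reads per library, and it was at least 709-fold higher in E1. In F2, with 2 reads in untreated cells, the ratio was 7782 (95% counting interval 2060 to 61449). CD44 went from 0, 0.942 and 0 to 118, 133 and 126 in WT, with a log2 change of 6.66, and MSX2, another beta-catenin target, was level with it in WT at 6.65. CD44 had no read in untreated E1 or F2. Its treated level was at least 61.7-fold higher for E1, and for F2 at least 75.3-fold higher. PRICKLE2, a gene of planar cell polarity picked after its values were seen, had no read in untreated F2 and 2474, 2757 and 2680 normalized counts in treated F2, at least 805-fold higher. The other lines were not at 0 when untreated. PRICKLE2 averaged 66.5 and 4193 in WT without and with tazemetostat, and 1263 and 3880 in E1.

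The largest falls in WT were those of CTNNBIP1, which keeps beta-catenin from TCF factors, and TLE2, a corepressor of TCF factors. CTNNBIP1 had 12273, 12417 and 12015 normalized counts in WT with DMSO and 3880, 3725 and 3694 with tazemetostat. It fell 3.25-fold for WT, 4.57-fold for E1 and 5.52-fold for F2, with log2 changes of -1.70 ± 0.07 (SE), -2.18 ± 0.07 and -2.46 ± 0.07. TLE2 fell 2.54-fold in WT and 2.95-fold in E1, at log2 changes of -1.34 and -1.54, and stood at -0.88 in F2, under the fold limit.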

How the data were processed

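RNA-seq was analysed from 1 deposited table of 18 samples, whose values are a signal: gene counts that the authors divided by a DESeq2 size factor per sample. Reads were trimmed with Trim Galore 0.4.4, aligned with STAR 2.6.0a to hg19 and counted with HTSeq, per the submitters' processing notes; the annotation and strand setting are not given in the sources used here. Multiplying by each column's size factor (0.812 to 1.145) gave whole reads for 100% of values (tolerance 1e-06), with 25709489 to 39314860 reads per library. Intervals and floors of 3 reads cover counting error only.

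The 50 genes, the other pathway genes and the markers were chosen with earlier results of these data known. limma 3.58.1 in R 4.3.3 was fitted to log2(value + 1) with 6 group means over all 18 libraries, with the trended eBayes prior. A mean of at least 10 was required, and 11 contrasts were adjusted by Benjamini-Hochberg over 16154 genes. On this scale the change of low genes is understated. Members past the threshold in at least 1 comparison are given in every library. Values of other pathway genes are given for the 2 largest rises and 2 largest falls in WT. MSX2 and PRICKLE2 were added outside this rule. The exact binomial method gave 95% counting intervals for ratios of reads.

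Alternatives were pseudocounts of 0.5 and 5, no filter, a mean of at least 50, the same total in every library, TMM scaling, only the compared groups, a replicate block, leaving out each library and 2 tests of the recovered reads, edgeR 4.0.16 (quasi-likelihood) and DESeq2 1.42.0 (Wald). Groups share replicate numbers. Same-numbered libraries deviated together at r above 0.1 in every pair for F2 minus WT with DMSO alone (0.182, 0.108 and 0.375), where the block left 7 calls as without it. The limma procedure was tested on simulated data. Promoters came from RefSeq (GRCh38.p14), exon lengths and overlaps from GENCODE v29 by symbol, and Python 3.11.15 with matplotlib 3.10.9 made the figures.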

Additional observations from a re-analysis of the deposited data

Results flagged for a closer look

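The response to tazemetostat differed from that in WT for 9 of the 34 genes in E1 and 5 in F2. Over all tested genes the shares were 10.0% and 7.48%. The difference of log2 changes itself was tested, and each is given here as its value. In E1 the response was lower for WNT2B (-2.24), WNT11 (-1.81), WNT5B (-1.73), WNT6 (-1.67), WNT4 (-1.44) and SFRP5 (-1.13). It was also lower for SFRP1 (-1.22), whose sign was opposite with edgeR, and higher for FRZB (1.58) and RNF43 (1.41). FRZB had 1 to 6 reads per library in E1. In F2 the response was higher for WNT10A (2.42) and lower for WNT5B (-1.44), calls that held without any single library. WNT10A, however, had only 3, 3 and 1 reads in untreated F2. The response was also higher for WNT6 (1.53) and WNT7B (1.53) and lower for FRZB (-1.10). Each of these lost the call in several fits without 1 library, WNT6 and WNT7B also with edgeR (adjusted p 0.0612 and 0.116). Both sets of differences use the same WT libraries, and no explanation was tested.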

How the results depend on the processing

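Of 1789 recomputed values of 108 gene results, 1710 kept their direction and their side of the threshold, 76 lost the call, 2 gained it and 1 reversed: SFRP1 in the response of E1 minus WT was 0.2157 with edgeR. The number of members past the threshold moved by over 1.5 times in these cases. With no filter on low values it was 20 instead of 13 for tazemetostat in WT, 5 instead of 3 for E1 minus F2 with tazemetostat and 2 instead of 5 for the response of F2 minus WT. The same total in every library gave 5 for E1 minus F2 with tazemetostat. Fitting only the compared groups gave 3 instead of 5 for E1 minus WT with DMSO, and a pseudocount of 5 gave 3 instead of 6 for F2 minus WT with tazemetostat. A pseudocount of 0.5, a mean of at least 50 and edgeR each gave 3 for the response of F2 minus WT. Without 1 library at a time the counts were 3 to 5 for E1 minus F2 with tazemetostat and 2 to 4 for the response of F2 minus WT. The cause was not tested, except that the added filter leaves fewer genes and its absence more. The same total in every library moved the median log2 change of all genes by -0.15 for tazemetostat in WT, 0.15 for F2 minus WT with tazemetostat and 0.12 for the response of F2 minus WT; TMM moved none by more than 0.014. The replicate number as a block left the count of members past the threshold as without it in 10 comparisons and gave 4 instead of 5 for the response of F2 minus WT. Same-numbered libraries' deviations correlated at -0.244 to 0.375. Low counts limit WNT6, WNT7B and WNT10A, which had 1 to 4 reads per library in untreated F2. They also limit FRZB in E1, with 1 to 4 reads per untreated library. In untreated libraries of all 3 lines, SFRP1 had at most 1 read, DKK1 at most 6 and NKD1 at most 24, so these genes are limited too.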
